A study of Drosophila melanogaster with 25 samples.

Results

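The apicobasal polarity and adherens junction genes described here are 10 genes of Drosophila melanogaster, taken by gene symbol from a pair of gene count tables that list 17208 genes each. They are sdt and Patj of the Crumbs complex, baz, aPKC and par-6 of the Par complex, l(2)gl, dlg1 and scrib of the Scribble module, and shg and arm of the adherens junction. All 10 were listed in both tables and passed the filter on low counts in every comparison, with between 737 (par-6) and 51735 (arm) counts in a library.

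In fly epithelia the Crumbs and Par complexes hold the apical membrane and the Scribble module holds the basolateral membrane, each by excluding the other. E-cadherin and the catenins join neighbouring cells in a belt at the border between these domains. The atypical cadherin Fat, encoded by ft, also sits near the apical junctions of disc cells, where it restrains growth through the Hippo pathway and orients cells in the plane of the tissue.

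The study measured RNA by sequencing in flies with raised or lost ft activity. The FtICD groups came from a stock with ubi-Gal4, a ubiquitous driver, and UAS-FtICD-3xFLAG, which carries the intracellular part of Fat with a tag. They comprised 4 libraries of embryos aged 16 to 20 h, 3 of wing discs and 3 of eye-brain complexes from larvae of instar 3. The ft null group, with the allele pair ft fd5-5/ft X13, comprised 3 eye-brain libraries. No group here carried the driver alone, so effects of the driver and of FtICD cannot be told apart. The WT groups were w1118, a laboratory stock: 4 embryo, 3 wing disc and 2 eye-brain libraries in the FtICD table, and 3 eye-brain libraries in the ft table. WT embryos were also aged 16 to 20 h, and every wing disc and eye-brain library, mutant or WT, came from larvae of instar 3. All groups were kept at 25 C. The labels do not say that libraries came from separate animals or cultures, so the p-values below measure only the spread between these libraries, which may be technical.

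Libraries held between 15016563 and 54256664 counts. Levels are CPM, the counts of a gene per 1000000 counts of its library, scaled over the libraries of the comparison they belong to. ft stood at 1077 to 1412 CPM in FtICD embryos against 22.4 to 32.9 CPM in WT embryos, at 7577 to 9195 against 288 to 343 CPM in wing discs, and at 4532 to 5220 against 141 and 152 CPM in eye-brain complexes. In the ft table it stood at 160 to 183 CPM in ft null and 110.0 to 124 CPM in WT libraries, so the RNA level gave no check of the ft null label. Eye-brain FtICD replicate 3 stood apart: its 4 fat body markers summed to 4279 CPM, against 5.23 and 11.5 CPM in the other FtICD and 7.60 and 70.8 CPM in the WT eye-brain libraries. Ribosomal RNA took 12.1% to 16.2% of the counts in FtICD embryos and 4.22% to 6.02% in WT embryos. In eye-brain complexes it took 4.4% to 10.0% with FtICD and 11.4% and 15.1% in WT. In wing discs it took 10.8% to 14.1% with FtICD and 10.9% to 11.2% in WT. In the ft table it took 0.471% to 0.735% in ft null and 0.946% to 1.44% in WT libraries. The 7 neuronal markers summed to 828 to 946 CPM in WT eye-brain and 20.8 to 38.7 CPM in WT wing disc libraries, and the 5 muscle markers to 23470 CPM or more in WT embryos. The 5 eye disc markers summed to 90.4 and 113 CPM in the WT eye-brain libraries of the FtICD table, and to 728 to 799 CPM in those of the ft table.

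In WT animals the genes did not share 1 tissue pattern. In CPM, shg and par-6 were several times higher in both larval tissues than in late embryos, and scrib was about as many times lower. arm was lowest in the eye-brain complex, though per length, given further on, its range there overlapped that of embryos. These tests use the WT libraries of the FtICD table. The order of scrib, arm, shg, l(2)gl, Patj and baz differed in the WT eye-brain libraries of the ft table, given further on. In wing discs against embryos, 4 of the 10 genes were higher, with 36.7% of all genes tested higher, and 2 were lower, with 50.8% of all genes lower. In eye-brain complexes against embryos 3 were higher, where 39.3% of all genes were, and 3 were lower, where 42.9% were. In wing discs against eye-brain complexes 3 were higher, where 20.9% of all genes were, and 2 were lower, where 29.2% were. A gene is called higher or lower here where the quasi-likelihood test of edgeR gave a p under 0.05 after Benjamini-Hochberg adjustment over all genes tested. The embryo libraries were read on another sequencer than the larval libraries of the same table, so tissue and sequencing run cannot be told apart, and in whole tissues fewer cells of a type and less RNA per cell cannot be told apart either.

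**Figure D1:**
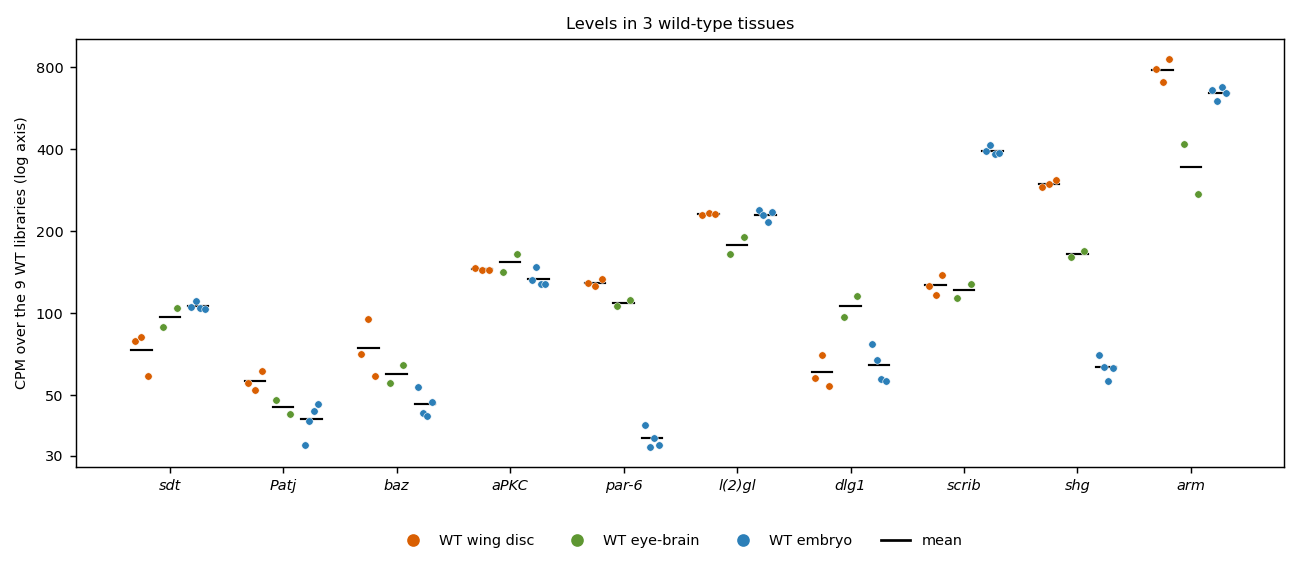
Levels of the 10 genes in the 9 WT libraries of the FtICD table, in CPM on a log axis. Points are libraries (3 wing disc, 2 eye-brain, 4 embryo), bars are group means. shg and par-6 stand lowest and scrib highest in the embryo libraries, and arm lowest in the 2 eye-brain libraries. The 3 WT eye-brain libraries of the ft table are not drawn.

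Among the Crumbs complex genes, sdt, the scaffold that binds the tail of Crumbs, stood at 79.2, 81.8 and 58.6 CPM in WT wing discs, 89.3 and 104 CPM in WT eye-brain complexes and 104 to 111 CPM in WT embryos. Its wing disc libraries lay below all others. The difference was -0.54 (SE 0.12, adjusted p = 0.00128) on the log2 scale from embryos and -0.40 (SE 0.14, adjusted p = 0.0307) from eye-brain complexes. That second call was lost with size factors by the median of ratios (adjusted p = 0.0743), without wing disc replicate 3 (0.0563) and without either eye-brain library (0.068 and 0.372). Patj, a multi-PDZ scaffold of the same complex, stood at 55.4, 52.0 and 61.2 CPM in wing discs and 32.8 to 46.4 CPM in embryos, a log2 difference of 0.46 (SE 0.12, adjusted p = 0.00395). Its eye-brain libraries, at 47.8 and 42.6 CPM, overlapped the embryo range.

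Among the Par complex genes, par-6, the adaptor that links aPKC to Cdc42, stood at 129.6, 126 and 134 CPM in WT wing discs, 107 and 112 CPM in WT eye-brain complexes, and 39.0, 32.2, 34.9 and 32.9 CPM in WT embryos. Every larval library lay above every embryo library. The log2 difference from embryos was 1.90 (SE 0.08, 3.73-fold, adjusted p = 3.97e-09) in wing discs and 1.65 (SE 0.09, 3.14-fold, adjusted p = 4.06e-08) in eye-brain complexes. baz, the fly Par-3 that recruits the complex to the cortex, was higher in wing discs, at 58.7 to 94.97 CPM, than in embryos, at 41.9 to 53.6 CPM, by 0.68 log2 (SE 0.16, adjusted p = 0.00176). aPKC, the kinase of the complex, stood at 144 to 147 CPM in wing discs, 142 and 166 CPM in eye-brain complexes and 128 to 147 CPM in embryos. These ranges overlapped, and the log2 difference from embryos was 0.11 (95% interval -0.07 to 0.30) in wing discs and 0.20 (-0.01 to 0.40) in eye-brain complexes.

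Of the Scribble module, scrib, a large scaffold of the basolateral membrane, stood at 126, 117 and 138 CPM in WT wing discs and 114 and 128 CPM in WT eye-brain complexes, against 395, 414, 384 and 387 CPM in WT embryos. The larval tissues overlapped each other and lay far below the embryos. The log2 difference from embryos was -1.64 (SE 0.09, adjusted p = 1.79e-08) in wing discs and -1.70 (SE 0.10, adjusted p = 8.31e-08) in eye-brain complexes. dlg1, a membrane-associated guanylate kinase of septate junctions and synapses, was highest in eye-brain complexes, at 97.2 and 115.3 CPM, against 54.1 to 70.1 CPM in wing discs and 56.5 to 76.8 CPM in embryos. The log2 difference of wing discs from eye-brain complexes was -0.81 (SE 0.16, adjusted p = 0.0014), and that of eye-brain complexes from embryos was 0.72 (SE 0.15, adjusted p = 9.41e-04). l(2)gl, the aPKC substrate that keeps aPKC activity apical, stood at 229 to 234 CPM in wing discs, 165.5 and 191 CPM in eye-brain complexes and 216 to 239 CPM in embryos. It was lower in eye-brain complexes than in embryos by a log2 difference of -0.37 (SE 0.09, adjusted p = 0.00238) and higher in wing discs than in eye-brain complexes by 0.37 (SE 0.09, adjusted p = 0.0056).

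Among the adherens junction genes, shg had the largest tissue difference of all the genes described here. shg, which encodes E-cadherin, stood at 291, 298 and 309 CPM in WT wing discs, 160.5 and 169 CPM in WT eye-brain complexes, and 70.2, 63.2, 56.2 and 63.1 CPM in WT embryos, so the 3 tissues did not overlap. It was 4.74-fold higher in wing discs than in embryos (log2 2.24, SE 0.08, adjusted p = 1.58e-09), 2.61-fold higher in eye-brain complexes than in embryos (log2 1.38, SE 0.09, adjusted p = 1.85e-07) and 1.82-fold higher in wing discs than in eye-brain complexes (log2 0.86, SE 0.10, adjusted p = 4.42e-05). arm, the fly beta-catenin and the effector of Wingless signalling, stood at 786, 706 and 859 CPM in wing discs, 418 and 273 CPM in eye-brain complexes, and 659, 602, 677 and 642 CPM in embryos. The pair of eye-brain libraries lay below all others. The log2 difference of wing discs over eye-brain complexes was 1.18 (SE 0.17, adjusted p = 1.88e-04), and that of eye-brain complexes over embryos was -0.90 (SE 0.16, adjusted p = 3.9e-04).

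The scaling of embryos against larval tissues mattered for the smaller of these differences. A fit of the whole FtICD table moved the median of all genes by 0.23 log2 in wing discs over embryos and 0.21 in eye-brain complexes over embryos, and median-of-ratios size factors moved it by -0.125 and -0.212. Under the joint fit l(2)gl was -0.16 in eye-brain complexes (adjusted p = 0.271), while aPKC was called higher in both larval tissues (adjusted p = 0.0105 and 0.00821). The differences of shg, par-6 and scrib from embryos stayed called in that fit, and each is far larger than these shifts of the median. Per length, given next, larval levels of the genes stood higher against embryos than in CPM.

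Between genes, levels can be set side by side only per length, as TPM, which divides the counts of a gene by the length of its exons and sets the sum to the same total in each library. arm was the most abundant of the 10 in each WT group, at 483 ± 47.6 TPM in wing discs (SD, n = 3), 224 ± 56.4 TPM in eye-brain complexes (n = 2) and 256 ± 14.3 TPM in embryos (n = 4). In wing discs shg (103 TPM), par-6 (93.9 TPM), l(2)gl (84.9 TPM), aPKC (49.5 TPM) and Patj (37.5 TPM) followed without overlap between neighbours. scrib, baz, sdt and dlg1, at mean levels of 16.2, 15.1, 14.6 and 11.6 TPM, overlapped each with the next in that tissue. In eye-brain complexes par-6 stood next to arm at 84.0 TPM, l(2)gl, shg and aPKC overlapped at 69.6, 60.0 and 55.8 TPM, and baz was lowest at 12.9 TPM. In embryos l(2)gl came second at 54.5 TPM, scrib and aPKC overlapped at 32.5 and 29.5 TPM, and dlg1 and baz were lowest at 7.93 and 6.06 TPM. Divided by the longest transcript in place of all exons, scrib in embryos came to 57.0 TPM and l(2)gl to 56.8 TPM, while arm stayed highest. Over all exons, l(2)gl was lower in embryos (50.2 to 57.2 TPM) than in eye-brain complexes (62.2 and 76.9 TPM), the reverse of its CPM order. aPKC was lowest in embryos, at 27.7 to 31.9 TPM against 48.8 TPM or more. sdt in wing discs (11.6 to 16.1 TPM) overlapped embryos (13.2 to 13.95 TPM). arm in eye-brain complexes (184 and 264 TPM) overlapped embryos (235 to 264 TPM). shg, par-6 and scrib kept their direction from embryos.

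The WT eye-brain complex was sequenced once for each table, on different sequencers. The tables are also scaled apart, so the levels below are given without a test. Ribosomal RNA took 11.4% and 15.1% of the counts in these libraries of the FtICD table. In those of the ft table it took 0.946% to 1.44%. Per length, arm stood at 224 TPM in the FtICD table and 907 TPM in the ft table, shg at 60.0 and 174 TPM, and dlg1 at 21.6 and 95.2 TPM. par-6 was nearly equal at 84.0 and 89.6 TPM. The other 6 genes were all higher in the ft table. With the ft-table libraries the order of tissues turns for several genes. arm at 907 TPM lies above WT wing discs (483 TPM) and embryos (256 TPM), and shg at 174 TPM above WT wing discs (103 TPM). scrib at 53.9 TPM lies above WT embryos (32.5 TPM), and l(2)gl at 151 TPM above WT wing discs (84.9 TPM). Per length, l(2)gl lay above WT embryos (54.5 TPM) in the eye-brain libraries of both tables. The tissue differences that involve the eye-brain complex therefore hold for the 2 WT libraries of the FtICD table. Those of l(2)gl and arm from embryos hold there only in CPM.

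Against WT, l(2)gl in embryos, arm in both larval FtICD tissues and sdt in ft null complexes lay farthest from zero. In FtICD embryos 2 of 10 were higher, where 26.7% of all genes were, and 1 was lower, where 25.8% were. In FtICD wing discs 1 of 10 passed the test, lower, where 9.97% of all genes were lower and 7.67% higher. In FtICD eye-brain complexes 1 of 10 passed, higher, where 3.15% of all genes were higher and 1.08% lower. Of all calls there, 74.5% were higher, and 61.2% in a joint fit of the table or 64.1% with DESeq2. In ft null eye-brain complexes 5 of 10 were higher, where 23.5% of all genes were, and no other passed, where 21.0% of all genes were lower. The median log2 difference of the 10 genes was 0.19 in FtICD embryos, -0.27 in FtICD wing discs, -0.27 in FtICD eye-brain complexes and 0.19 in ft null eye-brain complexes, with the median of all genes at 0.01 or closer to zero in each. Groups did not overlap for 48.0% of all genes tested in FtICD embryos and 39.6% in FtICD wing discs. The shares were 46.3% in FtICD eye-brain complexes and 56.7% in ft null complexes. Of the 10 genes, 3, 5, 6 and 5 did not overlap, in that order. A lack of overlap, where given below, is thus common among all genes.

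**Figure D2:**
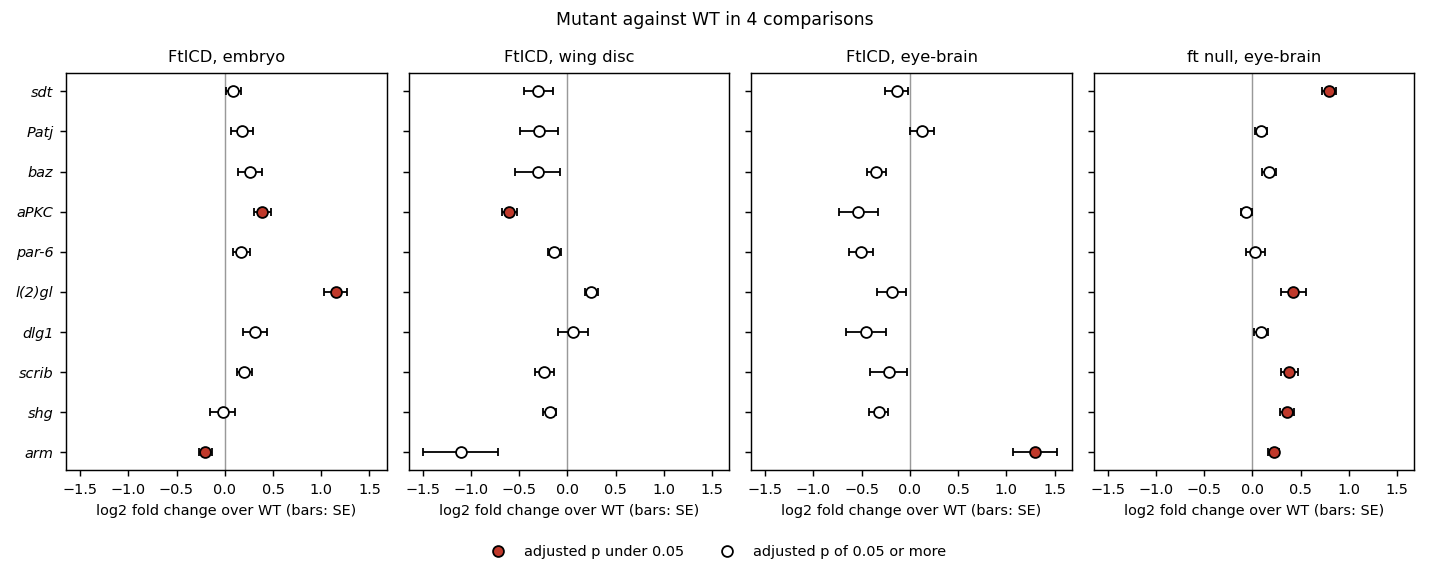
Log2 fold change of each gene over WT in the 4 comparisons, with bars for the standard error and filled points for an adjusted p under 0.05. l(2)gl at 1.15 in embryos, arm at -1.10 in wing discs and 1.30 in eye-brain complexes, and sdt at 0.80 in ft null eye-brain complexes lie farthest from zero.

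**Figure D3:**
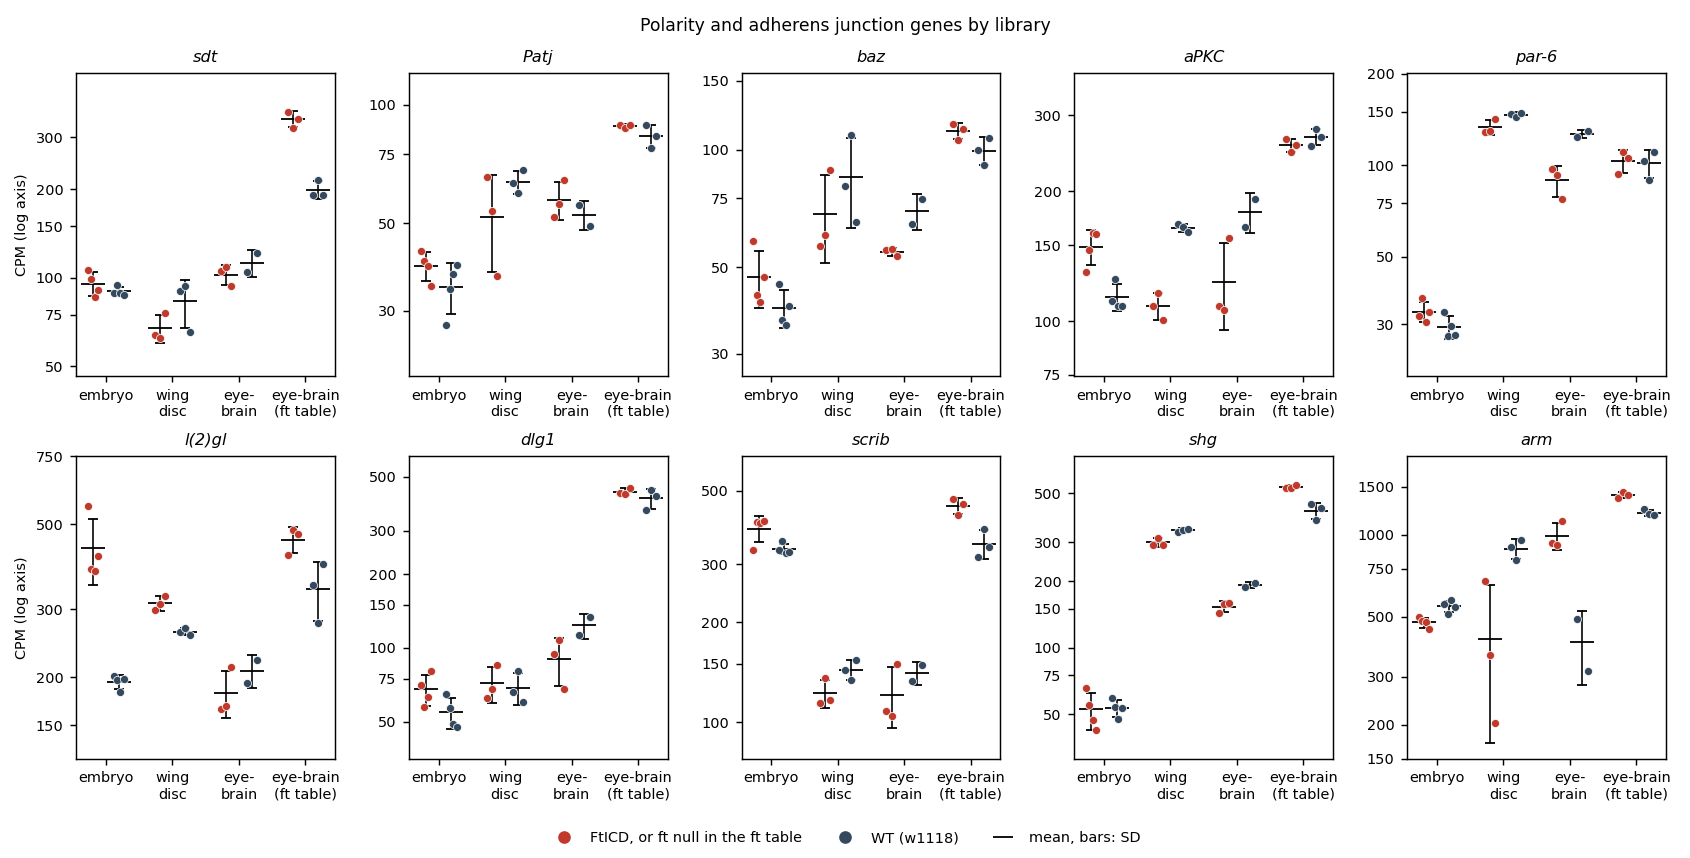
CPM of each gene in every library on a log axis, with FtICD or ft null left of its WT. Points are libraries, and the black marks are the mean with its SD. The 3 ft null libraries lie above their 3 WT libraries for sdt, l(2)gl, scrib, shg and arm. Of all genes tested in that comparison, 56.7% had groups without overlap, in either direction.

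Markers of cell types moved with these groups as well, and their part in the results was not tested. For scale, 26.7% of all genes tested were higher and 25.8% lower in FtICD embryos. The shares were 23.5% and 21.0% in ft null complexes, 7.67% and 9.97% in FtICD wing discs, and 3.15% and 1.08% in FtICD eye-brain complexes. In FtICD embryos 4 of 7 neuronal markers were higher, with sums of 657 to 718 CPM against 519 to 579 CPM in WT, 3 of 4 neuroblast markers were higher, with sums of 40.3 to 53.0 against 25.9 to 32.7 CPM, and 2 of 5 muscle markers were lower and 1 higher, with sums of 17410 to 20350 against 23470 to 26650 CPM. There 3 of 4 haemocyte markers were also higher, with sums of 148 to 163 against 126 to 132 CPM. So were 3 of 5 wing disc markers, with sums of 174 to 188 against 167 to 179 CPM. Among ft null complexes all 5 eye disc markers were lower, with sums of 502 to 523 against 728 to 799 CPM, 6 of 7 neuronal markers were lower, with sums of 1248 to 1269 against 1706 to 1857 CPM, and all 4 haemocyte markers were higher, with sums of 326 to 406 against 102 to 119 CPM. None of the markers in those lists was at 0 throughout the embryo groups or the ft-table groups. The ft null group also had 4 of 5 late cuticle markers higher, with sums of 1892 to 1985 against 1074 to 1235 CPM, 3 of 5 wing disc markers lower, with sums of 493.4 to 525 against 599 to 613 CPM, and 7 of 12 ecdysone-stage genes lower and 1 higher, with sums of 3937 to 4259 against 3998 to 6014 CPM. Its glial markers were lower for 2 of 5, with sums of 685 to 702 against 559 to 847 CPM. In FtICD eye-brain complexes 1 of 7 neuronal markers was higher, 1 of 5 wing disc markers was lower, and no other marker passed. Sums lay apart there for glia (719 to 751 against 510 and 596 CPM in WT) and neuroblasts (232.5 to 272 against 192 and 225 CPM). They also did for haemocytes (63.3 to 260 against 43.4 and 44.6 CPM) and the wing disc (315 to 334 against 425 and 435 CPM). Among FtICD wing discs 2 of 4 fat body markers were higher, with sums of 50.3 to 781 CPM against 16.8 to 64.5 CPM in WT. There 1 of 5 wing disc markers was lower, with sums of 930.3 to 937 against 1089 to 1221 CPM. Sums also differed without overlap for glia (43.3 to 49.4 against 20.1 to 24.9 CPM), neuroblasts (55.3 to 73.4 against 34.9 to 44.5 CPM) and late cuticle (1967 to 2104 against 2380 to 2505 CPM). The ecdysone-stage genes of wing discs are given further on.

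Of the Crumbs complex, sdt rose in ft null complexes. It stood at 367, 324 and 347 CPM in ft null eye-brain libraries, against 191, 215 and 191 CPM in their WT. The groups lay well apart, 1.74-fold (log2 0.80, SE 0.07, adjusted p = 2.24e-04), and the difference held without any 1 library (log2 0.76 to 0.85). In FtICD tissues sdt stood at log2 0.09 (95% interval -0.08 to 0.26) in embryos, -0.30 (-0.66 to 0.06) in wing discs and -0.14 (-0.43 to 0.16) in eye-brain complexes. The wing disc value became -0.44 (adjusted p = 0.0497) without WT replicate 3. The ft null effect exceeded the FtICD effect in eye-brain complexes by 0.98 log2 (SE 0.14, adjusted p = 0.00153). Its partner crb, the transmembrane protein that sdt stabilises, stood at 245, 236 and 262 CPM in ft null libraries, against 147, 129.7 and 144 CPM in WT, a log2 change of 0.82 (SE 0.07, adjusted p = 1.51e-04). crb did not pass in FtICD embryos (-0.12, adjusted p = 0.213), wing discs (-0.05, 0.761) or eye-brain complexes (-0.36, 0.151). Patj passed in none of the 4 comparisons, with log2 values between -0.29 and 0.18, and its FtICD and WT or ft null and WT groups overlapped in each. Of its exon bases, 177 (5.37%) overlap JTBR on the other strand, and the labels do not state a kit that keeps strand.

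Of the Par complex, aPKC passed in opposite directions in 2 FtICD tissues. It rose in FtICD embryos, to 129.9, 146, 160 and 159 CPM against 111, 125, 109 and 109 CPM in WT. The groups were separated by a small gap, and the log2 change was 0.39 (SE 0.09, adjusted p = 0.00311). It fell in FtICD wing discs, to 108, 116 and 101 CPM against 168, 165 and 161 CPM in WT. Every FtICD disc lay far below every WT disc, by a log2 change of -0.60 (SE 0.08, adjusted p = 0.00315), and both calls held without any 1 library (adjusted p at most 0.0151 in embryos and 0.0195 in wing discs). In eye-brain complexes aPKC stood at 108, 106 and 156 CPM with FtICD and 165.5 and 192 CPM in WT, a log2 difference of -0.54 (SE 0.20, adjusted p = 0.207). The third FtICD library is the one with the high fat body marker sum. Without it the difference was -0.73 (adjusted p = 0.0171). In ft null complexes aPKC stood at -0.06 (95% interval -0.19 to 0.07). The FtICD effect on aPKC differed between wing discs and embryos by -0.96 log2 (SE 0.16, adjusted p = 5.58e-04) and between eye-brain complexes and embryos by -0.92 (SE 0.17, adjusted p = 0.00119). Both differences share the embryo libraries, which were read on another sequencer than the larval ones.

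par-6 in FtICD eye-brain complexes stood at 97.5, 92.7 and 77.6 CPM against 124 and 129.6 CPM in WT. All FtICD libraries lay below both WT libraries, and the log2 difference of -0.51 (SE 0.12) had an adjusted p of 0.0962. Without FtICD replicate 3 it was -0.42 (adjusted p = 0.0351). In the other comparisons par-6 stood at log2 0.17, -0.14 and 0.03 in FtICD embryos, FtICD wing discs and ft null complexes, with no call, though the wing disc groups did not overlap. baz passed in none of the 4 comparisons, though it did in FtICD embryos without WT replicate 1 (0.33, adjusted p = 0.0492) and in FtICD eye-brain complexes with DESeq2 (-0.36, adjusted p = 0.0194). Its log2 values were 0.26, -0.31, -0.35 and 0.17 in FtICD embryos, wing discs and eye-brain complexes and in ft null complexes. In eye-brain complexes it stood at 55.4, 55.7 and 53.3 CPM with FtICD against 64.5 and 74.9 CPM in WT, without overlap (adjusted p = 0.126). Its wing disc values spread widely within both groups, from 56.7 to 88.4 CPM with FtICD and from 65.4 to 109 CPM in WT.

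Of the Scribble module, l(2)gl changed most. It stood at 557, 383, 377 and 413 CPM in FtICD embryos, against 202, 196, 183 and 198 CPM in WT embryos. FtICD replicate 1 was the highest, and even the lowest FtICD library was far above every WT library. The change was 2.22-fold (log2 1.15, 95% interval 0.89 to 1.41, adjusted p = 2.65e-05), and 0.999 to 1.21 log2 without any 1 library. In wing discs l(2)gl stood at 299, 310.1 and 326 CPM with FtICD and 262, 268 and 257 CPM in WT. These groups did not overlap, but the log2 difference of 0.25 (SE 0.07) had an adjusted p of 0.0519. In eye-brain complexes it stood at 166, 169 and 212 CPM with FtICD and 193 and 222 CPM in WT, overlapping (log2 -0.19, 95% interval -0.57 to 0.19). In ft null complexes it rose to 414, 482 and 470 CPM against 346, 277 and 394 CPM in WT, without overlap but with a wide spread in WT. The log2 change was 0.43 (SE 0.13, adjusted p = 0.0272). Leaving out ft null replicate 2 or 3 or WT replicate 1 gave an adjusted p of 0.083, 0.088 or 0.0648, at log2 values of 0.39, 0.41 and 0.44. The l(2)gl effect was smaller in wing discs than in embryos by a log2 difference of -0.86 (SE 0.16, adjusted p = 9.13e-04) and in eye-brain complexes by -1.33 (SE 0.17, adjusted p = 6.88e-05). Tissue and sequencer cannot be told apart in these differences from embryos.

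l(2)gl is the gene nearest the tip of chromosome 2L among the placed genes tested, from base 9839 to 21376 of assembly BDGP6.54. Its nearest tested neighbour, Ir21a, from 21823 to 25155, was also higher in FtICD embryos (log2 0.78, SE 0.22, adjusted p = 0.0119). In FtICD wing discs, where Ir21a was not tested, the next gene, Cda5, was higher by 0.85 log2 (SE 0.15, adjusted p = 0.0117). In FtICD eye-brain complexes Ir21a stood at 6.81 log2 (SE 1.99, adjusted p = 0.157), where l(2)gl stood at -0.19. In ft null complexes Cda5 stood at -0.26 (adjusted p = 0.282).

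scrib rose in ft null complexes, to 472, 424 and 458 CPM against 315, 384 and 339 CPM in WT. The groups did not overlap, and the log2 change of 0.38 (SE 0.08, adjusted p = 0.00812) held without any 1 library (adjusted p at most 0.0353). In FtICD embryos scrib stood at 332, 402, 399 and 405 CPM against 333, 352, 326 and 327 CPM in WT. FtICD replicate 1 lay within the WT range and the other 3 above it, and the log2 difference of 0.20 (SE 0.08, adjusted p = 0.0518) was 0.26 (adjusted p = 0.00605) without that library. dlg1 in FtICD embryos stood at 70.6, 57.6, 63.4 and 80.3 CPM against 64.7, 57.1, 48.8 and 47.7 CPM in WT, overlapping (log2 0.32, SE 0.12, adjusted p = 0.0509). It was called without FtICD replicate 2 (0.39, adjusted p = 0.0261) or WT replicate 1 (0.41, adjusted p = 0.0177). dlg1 passed in no other comparison, with 0.06 in FtICD wing discs, -0.46 in FtICD eye-brain complexes and 0.09 in ft null complexes.

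Of the adherens junction genes, shg rose in ft null complexes, to 527, 527 and 544 CPM against 445, 376 and 427 CPM in WT. The ft null libraries lay close together above all WT libraries, by 0.36 log2 (SE 0.07, adjusted p = 0.00572). In FtICD wing discs it stood at 292, 314 and 291 CPM against 332, 342 and 345 CPM in WT, without overlap, but at a log2 difference of -0.18 (SE 0.07, adjusted p = 0.122). In FtICD eye-brain complexes it stood at 143, 158 and 159 CPM against 187 and 196 CPM (log2 -0.32, SE 0.10, adjusted p = 0.145), and in FtICD embryos at -0.02 (95% interval -0.30 to 0.26). The ft null effect on shg exceeded the FtICD effect in eye-brain complexes by 0.72 log2 (SE 0.13, adjusted p = 0.00451).

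arm showed the largest spread between libraries of 1 group. In FtICD wing discs it stood at 678, 360 and 202 CPM, against 897, 809 and 959 CPM in WT wing discs. All FtICD discs were lower, replicate 3 by far, yet the log2 difference of -1.10 (SE 0.39) had an adjusted p of 0.0981. Without FtICD replicate 1, the highest of its group, it was -1.66 (adjusted p = 0.00785). In FtICD eye-brain complexes arm stood at 933, 920 and 1121 CPM, against 488 and 316 CPM in WT. Here all FtICD libraries were higher, 2.46-fold (log2 1.30, SE 0.23, adjusted p = 0.0464). Per length, arm stood at 589 TPM in these FtICD libraries and 224 TPM in their WT. The WT eye-brain libraries of the ft table, read on another sequencer, held 907 TPM. Leaving out FtICD replicate 1 or 2 or WT replicate 1 or 2 ended that call (adjusted p = 0.165, 0.066, 0.0747 and 0.215), at log2 values of 1.34, 1.353, 1.65 and 1.02. With 1 WT library left, that library is assumed to vary like the FtICD group. Leaving out FtICD replicate 3 kept the call (log2 1.21, adjusted p = 0.0292).

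In FtICD embryos arm stood at 496, 479.6, 477 and 448 CPM against 556, 512, 574 and 541 CPM in WT, a small change without overlap (log2 -0.20, SE 0.07, adjusted p = 0.026). Leaving out FtICD replicate 2 or 4 or WT replicate 3 ended the call (adjusted p = 0.0531, 0.0624 and 0.0739), as did the joint fit (0.477). The overlapping gene mRpL16, which shares 82 of arm's exon bases (2.3%) on the other strand, fell by 0.69 log2 there (adjusted p = 1.63e-05). In ft null complexes arm rose to 1370, 1442 and 1403 CPM against 1240, 1194 and 1185 CPM in WT, without overlap (log2 0.22, SE 0.06, adjusted p = 0.0151). Without ft null replicate 2 or 3 the adjusted p was 0.0613 or 0.0699.

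The differences between effects were also tested. Between FtICD wing discs and FtICD eye-brain complexes, 1 of the 10 genes differed, where 12.0% of all genes did, and it was arm, at -2.37 log2 (SE 0.43, 95% interval -3.28 to -1.47, adjusted p = 0.00109). The higher share of all calls in that test was 31.8%, and 47.1% with DESeq2. Embryo and larval libraries were read on different sequencers, so tissue, stage and sequencer cannot be told apart in the differences from embryos. Between FtICD wing discs and embryos 2 differed, aPKC and l(2)gl, where 27.7% of all genes did. Between FtICD eye-brain complexes and embryos 5 differed, where 28.2% of all genes did: l(2)gl, aPKC, par-6 (-0.67, adjusted p = 0.00285) and dlg1 (-0.76, adjusted p = 0.0382) in the lower direction and arm in the higher (1.51, SE 0.40, adjusted p = 0.0105). The dlg1 call was lost when any 1 of 7 libraries was left out, and the arm call without WT eye-brain replicate 2 (adjusted p = 0.0916).

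Between ft null and FtICD effects in the eye-brain complex 5 differed, where 17.2% of all genes did. The tables were read on different sequencers, so genotype and sequencer cannot be told apart in these differences. sdt, shg, baz (0.56, adjusted p = 0.0142) and par-6 (0.59, adjusted p = 0.0424) were higher in ft null relative to FtICD, and arm lower (-1.03, SE 0.22, adjusted p = 0.0125). The par-6 call was lost without any of 7 of the 11 libraries in turn, and the baz call without WT eye-brain replicate 2 of the FtICD table (adjusted p = 0.0598).

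The pattern of arm was shared by other genes. Over the 19 libraries of the FtICD table, the gene with the closest log2 CPM pattern was CG12219 (r = 0.979), followed by z (r = 0.972), the zeste DNA-binding protein. In all, 46 of 9005 other genes reached r of 0.9 with arm. The points share tissue, sequencer and depth, so these are descriptions. z stood at 48.0, 20.5 and 12.0 CPM in FtICD wing discs against 95.7, 90.2 and 89.5 CPM in WT wing discs, and at 106, 94.0 and 118 CPM in FtICD eye-brain complexes against 28.8 and 18.7 CPM in WT. As for arm, FtICD wing disc replicate 3 and WT eye-brain replicate 2 were lowest in their tissues.

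The median of those 46 genes was 53.4, 26.9 and 17.2 CPM in FtICD wing discs against 91.4, 90.4 and 87.8 CPM in WT, and 100.4, 95.6 and 119.5 CPM in FtICD eye-brain complexes against 41.9 and 24.5 CPM in WT. It was 121 to 124 CPM in the WT eye-brain libraries of the ft table, which are scaled apart. All 46 lay below WT in FtICD wing discs, 25 of them past the test, and above WT in FtICD eye-brain complexes, 31 of them past the test. They were chosen on these same libraries, so those directions are not independent of the choice. In the ft table, which was not used to choose them, 36 of 46 were above WT in ft null complexes, 20 past the test higher and 2 lower, with a median log2 of 0.17. Of all genes tested there, 4995 of 9978 were above WT, 23.5% past the test higher and 21.0% lower. Of the 46, 14 (30.4%) lie on the X chromosome, as do arm and 15.0% of all genes at this level.

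**Figure D4:**
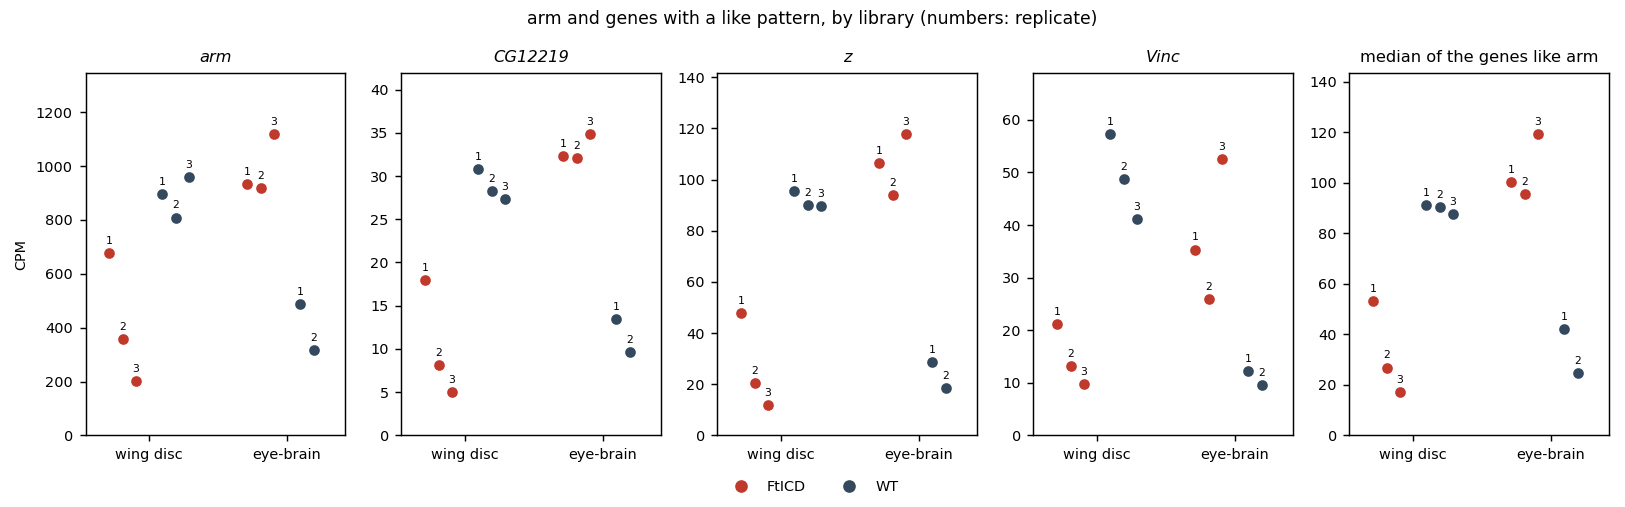
CPM by library, with the replicate number beside each point, for arm, its closest genes CG12219 and z, the junction gene Vinc, and the median of the 46 genes like arm. Only larval libraries of the FtICD table are drawn. Among these, in each panel, FtICD wing disc replicates 2 and 3 and both WT eye-brain libraries lie below the WT wing disc and FtICD eye-brain libraries.

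Across all 9224 genes tested in both larval tissues, which share no library, 270 passed in both, 16.6% of the wing disc calls and 68.9% of the eye-brain calls. Of these, 120 were lower in FtICD wing discs and higher in FtICD eye-brain complexes, as arm was in level, and 2 the reverse. Another 86 were higher in both and 62 lower in both. The part of developmental stage in these calls was not tested. FtICD wing discs stood at 1390 to 2023 CPM in the sum of 12 ecdysone-stage genes against 6254 to 8437 CPM in WT discs, while the FtICD eye-brain libraries, at 1632 to 2409 CPM, lay around the WT values of 1786 and 2524 CPM.

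**Figure D5:**
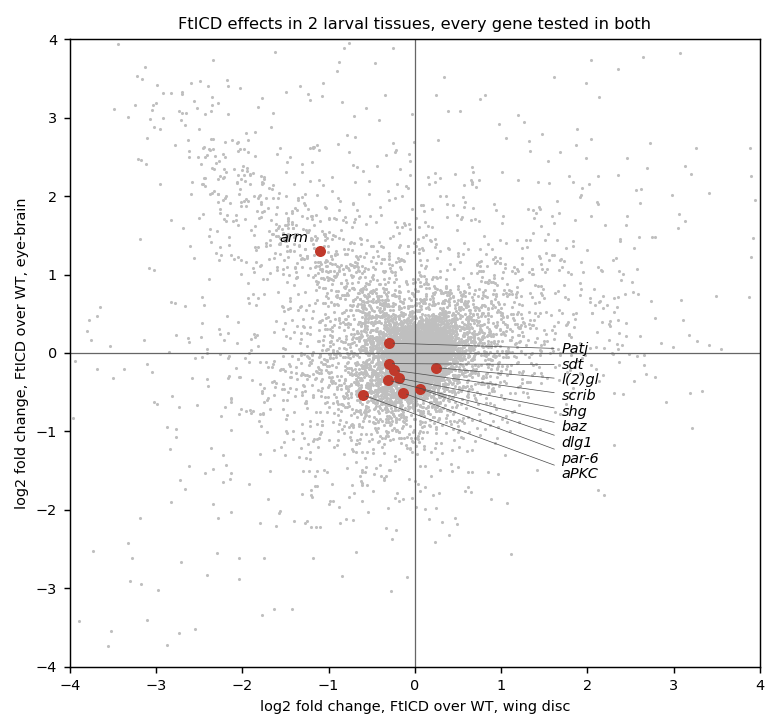
Log2 fold change over WT in FtICD eye-brain complexes against that in FtICD wing discs, for 9046 of the genes tested in both (178 lie beyond the axes). The 10 genes are marked. arm, at -1.10 and 1.30, lies in the upper left with a band of other genes, and the other 9 lie near the centre.

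Partner genes of the 4 complexes were read for comparison. Of 9 partners of the Crumbs and Par complexes, 3 were higher and 2 lower in FtICD embryos, shares near the 26.7% and 25.8% of all genes. par-1, the kinase that excludes Baz basolaterally, rose by 0.49 log2 (SE 0.06, adjusted p = 1.03e-04), and 14-3-3zeta, which binds phosphorylated Baz, by 0.42 (adjusted p = 4.31e-04). vari and veli, which are scaffolds, stood lower at -0.22 and -0.21. Of the exon bases of vari, 437 (15.2%) overlap Pomp on the other strand. Of those of par-1, 806 (6.35%) overlap mei-W68 on the same strand. In ft null complexes 3 were higher and 4 lower, where 23.5% of all genes were higher and 21.0% lower. crb is given above, Lkb1 also rose by 0.28 (adjusted p = 0.00977), and vari by 0.24 (adjusted p = 0.0194). 14-3-3zeta fell by 0.37 (adjusted p = 0.0366), veli by 0.28 (0.0317) and 14-3-3epsilon by 0.27 (0.0364). In larval FtICD tissues Lkb1, a kinase that acts on Par-1, lay farthest from zero, at -0.81 (adjusted p = 0.124) in wing discs and 0.69 (adjusted p = 0.16) in eye-brain complexes, short of the threshold. It is named there after its values were seen.

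Of 11 partners at the adherens junction, 5 were higher and 1 lower in FtICD embryos, against the same 26.7% and 25.8% of all genes. alpha-Cat, the catenin that ties the junction to actin, stood at 156, 140.3, 133 and 133 CPM in FtICD embryos against 79.3, 80.3, 75.02 and 81.7 CPM in WT, far apart (log2 0.83, SE 0.07, adjusted p = 9.63e-06). p120ctn, which binds the E-cadherin tail, rose likewise by 0.77 (SE 0.08, adjusted p = 1.99e-05), and CadN2, an N-cadherin paralogue, by 0.47 (adjusted p = 0.00139). shg, whose product both bind directly or through Arm, did not pass there. jub, an Ajuba LIM protein that holds Warts at junctions, was lower at -0.74 (adjusted p = 1.29e-04). Of the exon bases of alpha-Cat, 408 (11.7%) overlap an INE-1 transposable element on the same strand.

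In ft null eye-brain complexes alpha-Cat and p120ctn were lower, at -0.56 (SE 0.14, adjusted p = 0.0135) and -0.59 (SE 0.15, adjusted p = 0.0166), while shg and arm were higher. CadN, the neuronal cadherin, was lower at -0.60 (SE 0.09, adjusted p = 0.00145), and cno, the fly afadin, higher at 0.40 (SE 0.06, adjusted p = 0.00148). ed, an immunoglobulin-type adhesion protein, was higher at 0.24 (adjusted p = 0.0193). Of the 11 partners 2 were higher and 3 lower there, where 23.5% of all genes were higher and 21.0% lower. Of 10 tested in FtICD wing discs 2 passed, both lower, where 9.97% of all genes were. Vinc, the fly vinculin, stood at 21.1, 13.1 and 9.72 CPM against 57.4, 48.7 and 41.2 CPM in WT discs (log2 -1.74, SE 0.29, adjusted p = 0.00793), and ed at 218, 194 and 207 CPM against 461, 486 and 334 CPM in WT (log2 -1.05, SE 0.15, adjusted p = 0.00466). In FtICD eye-brain complexes Vinc stood at 35.3, 25.95 and 52.5 CPM against 12.2 and 9.50 CPM in WT (log2 1.81, SE 0.34, adjusted p = 0.0553), in the direction seen for arm, and is named there after its values were seen.

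Of 12 septate junction and basolateral genes, 7 were higher and 2 lower in FtICD embryos, where 26.7% of all genes were higher and 25.8% lower. Nrx-IV, a septate junction core protein, rose by 0.74 (SE 0.11, adjusted p = 2.22e-04), cora, its cytoplasmic partner, by 0.67 (adjusted p = 1.96e-04) and nrv2, a subunit of the sodium pump, by 0.62 (adjusted p = 2.36e-04). pck, a claudin-like protein, was lower at -0.54 (adjusted p = 7.73e-05). Of the same 12, 3 passed in ft null complexes, all higher, where 23.5% of all genes were: pck by 0.49 (SE 0.06, adjusted p = 5.29e-04), Cont by 0.38 and yrt by 0.19.

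Beyond arm, likeness over the 19 FtICD-table libraries varied widely among the 10 genes. par-6 and shg were closest to each other among the 10 (r = 0.9751), and 2447 and 2173 of 9005 other genes reached r of 0.9 with them, REG and N (Notch) being nearest to par-6 and Rok and tw nearest to shg. scrib was nearest to Mondo (r = 0.99), with 1390 genes at r of 0.9. baz was nearest to nkd (r = 0.96), a Wingless feedback gene, and l(2)gl to mys (r = 0.93), an integrin subunit. sdt was nearest to CanA-14F (r = 0.914), Patj to Spt6 (r = 0.93) and dlg1 to lawc (r = 0.913). aPKC had no gene at r of 0.9, and its nearest was lama (r = 0.744).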

How the data were processed

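RNA was measured in 25 libraries of whole embryos, wing discs and eye-brain complexes. Per the labels' protocols, cDNA was made from 10 ng of total RNA with a SMARTer Ultra Low kit and sequenced as paired reads of 150 bases. The deposited tables hold estimated counts per gene, as the authors' expected counts. The tools listed per the submitters' processing notes are Salmon 1.80, Trimmomatic 0.33, FastQC 0.10 and edgeR, with build dm6, and their roles and settings are not given in the sources used here. The counts were not normalized, and 31.8% of the values above 0 were fractional (tolerance 1e-06).

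The counts were rounded, genes were filtered with filterByExpr (minimum count 10, by group), libraries were scaled by TMM, and each comparison was fitted on its own libraries with edgeR 4.0.16 in R 4.3.3 (quasi-likelihood, two-sided, Benjamini-Hochberg over all genes tested, threshold 0.05). Differences between effects are interaction terms, in a fit of the 6 groups of the FtICD table or of the 4 eye-brain groups. CPM use the library sizes and TMM factors of the same fit. TPM are counts over the union of exons of Ensembl release 115 (BDGP6.54), which placed 16148 of the 17208 genes. The common biological coefficient of variation was 14.9%, 20.6%, 33.7% and 11.9% in the FtICD embryo, wing disc and eye-brain and the ft null comparisons, so the eye-brain FtICD comparison, with 2 WT libraries, is the least precise.

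Alternatives were DESeq2 1.42.0, median-of-ratios size factors, no filter, a joint fit, leaving out ribosomal RNA and mitochondrial genes or ft, the replicate number as a block, and leaving out each library. The fits were tested on simulated data. No pair of libraries within a group agreed within sampling noise (lowest chi-square per degree of freedom 7.96). Partner genes are named by a rule: up to 3 per list, direction and comparison, the largest called changes without overlap of groups at a mean of at least 5 CPM. crb, Lkb1 and Vinc are also given where they were not called, chosen after their values were seen. For likeness, the 2 genes with the highest correlation of log2(CPM + 1) are considered. The members and the gene lists were chosen with earlier results of these data known.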

Additional observations from a re-analysis of the deposited data

Results flagged for a closer look

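Among the members, 2 libraries stood apart within groups of 4. In WT embryos, replicate 2 was the highest for aPKC, at 125.4 CPM against 109 to 111 CPM in the others. In FtICD embryos, replicate 1 was the lowest for scrib, at 331.6 CPM against 399 to 405 CPM in the others. Such a gap arises by chance in about 1 of 20 groups. Every member was read in both embryo groups, so some such gaps are expected by chance.

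The FtICD effect differed between tissues by a test of the difference itself (edgeR interaction terms, adjusted p under 0.05) for 5 members. Wing disc minus embryo, it was -0.955 log2 for aPKC and -0.861 for l(2)gl, where 27.7% of all genes differed. Eye-brain minus embryo, it was -0.921 for aPKC, -0.666 for par-6, -1.329 for l(2)gl, -0.758 for dlg1 and 1.507 for arm. There 28.2% of all genes differed, and leaving out single libraries ended the dlg1 and arm calls, as given above. Wing disc minus eye-brain, it was -2.374 for arm, where 12.0% of all genes differed. The wing disc and eye-brain differences from the embryo all use the embryo libraries. Those were read on another sequencer than the larval ones, so tissue, stage and sequencer cannot be told apart in them.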

How the results depend on the processing

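No member changed sign past the threshold under any alternative: of the recomputed member differences 1745 kept their side of the threshold, 67 came to pass it and 38 no longer did. DESeq2 called 5 of the 10 members in FtICD embryos against 3, 2 in FtICD wing discs against 1, 4 in FtICD eye-brain complexes against 1, and 3 against 1 for the wing disc minus eye-brain effect, where median-of-ratios size factors called 2. The joint fit called 2 in FtICD wing discs and 3 in FtICD eye-brain complexes. Over all genes the FtICD eye-brain comparison moved most, with 458 calls, and 1837 by DESeq2 and 1725 in the joint fit.

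With the replicate number as a block, FtICD eye-brain complexes had 1284 calls and 3 members called, while arm in FtICD embryos (adjusted p = 0.0545) and in ft null complexes (0.0765) no longer passed. baz in FtICD embryos (0.0248) and aPKC and par-6 in FtICD eye-brain complexes (0.0138 and 0.0384) came to pass. Same-numbered libraries correlated in their deviations by -0.208 to 0.231, so the numbers are not shown to pair libraries.

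Leaving out each library in turn gave these ranges. FtICD embryos had 5407 to 6058 genes and 2 to 5 members called, FtICD wing discs 872 to 1561 genes and 1 to 2 members, FtICD eye-brain complexes 8 to 865 genes and 0 to 3 members, and ft null complexes 3097 to 5068 genes and 3 to 5 members. The FtICD eye-brain count fell to 8 without WT replicate 2 and was 865 without FtICD replicate 3. Between WT tissues, wing disc against embryo gave 10413 to 10948 genes and 6 to 8 members, eye-brain against embryo 9312 to 10113 genes and 6 to 7 members, and wing disc against eye-brain 5097 to 6106 genes and 4 to 7 members. Differences of effects gave 2875 to 3967 genes and 2 to 4 members for wing disc minus embryo, 1931 to 3713 and 3 to 5 for eye-brain minus embryo, 1041 to 1700 and 1 to 2 for wing disc minus eye-brain, and 1160 to 2493 and 3 to 7 for ft null minus FtICD. The causes were not tested. With 2 WT libraries, the FtICD eye-brain comparison is the one that single libraries move most.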
